A study of Homo sapiens with 4 samples.

Results

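Aminoacyl-tRNA synthetases are the enzymes that join each amino acid to its tRNA, and 37 genes of this system were followed in A549 cells that overexpressed SAMD9. They were 19 cytosolic synthetases, 16 mitochondrial synthetases (symbols ending in ARS2) and the scaffold genes AIMP1 and AIMP2, chosen by name out of 58812 genes listed in the files. A549 is an established human lung carcinoma epithelial line. SAMD9 cells received the SAMD9-Myc-DDK expression plasmid (2 libraries), and empty vector cells received pCMV6-Entry without an insert (2 libraries). All cells were wild type A549 given 1 µg of plasmid and taken at 24 hr, and total RNA depleted of ribosomal RNA was sequenced. Whether the replicates came from separate cultures is not stated in the labels, so p-values cover the spread between these samples alone, and that spread may be technical.

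Cytosolic synthetases charge the tRNAs used by cytosolic ribosomes, and a separate nuclear-encoded set is imported into mitochondria to charge the tRNAs transcribed there. Several cytosolic enzymes sit in a multi-synthetase complex held together by AIMP scaffolds, and many cytosolic synthetase genes are transcribed more when ATF4 is induced by amino acid shortage or other stress. WARS1, the cytosolic tryptophan enzyme, is in addition a known interferon-gamma-induced gene. SAMD9 is an interferon-induced antiviral protein known as an anticodon nuclease that cuts tRNA-Phe, which is the reason to set the phenylalanine enzymes FARSA, FARSB and FARS2 beside the others.

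The libraries held 39670083 and 30750029 counts in SAMD9 cells, against 29301854 and 31434339 in empty vector cells. SAMD9 itself had 220123 and 184350 counts in SAMD9 cells, against 444 and 400 in empty vector cells, and these counts do not separate plasmid from endogenous transcripts. Of the epithelial markers, KRT8, KRT18, EPCAM and CDH1 were detected in all libraries and KRT19 had at most 10 counts. Their summed level was 5995 to 6294 CPM (counts relative to the TMM-scaled library size) in SAMD9 cells and 4612 to 5101 CPM in empty vector cells. The alveolar markers SFTPC, SFTPB, NKX2-1 and SFTPA1 summed to at most 1.15 CPM in any library. The 3 fibroblast markers summed to 5.74 to 5.97 CPM in SAMD9 cells and 1.53 to 2.21 CPM in empty vector cells, and leukocyte and endothelial markers to at most 2.81 CPM. The part of these markers in the results was not tested.

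Among the 37 members, WARS1 mRNA stood apart with a 5.17-fold rise, and every other measured change was small. All 37 had enough counts to be tested, and 14 were called, at an adjusted p below 0.05 in edgeR's quasi-likelihood test over 19814 genes. WARS1, KARS1, LARS2 and EARS2 were higher in SAMD9 cells and 10 members were lower. Of all genes tested, 27.5% were called, 15.3% as higher and 12.2% as lower. The count of lower members was 4 without SAMD9 replicate 1, 1 without SAMD9 replicate 2, 7 without empty vector replicate 1 and 11 without empty vector replicate 2. The median log2 fold change of the members was -0.11, against -0.01 for all genes tested. Apart from WARS1, the members lay between -0.50 (MARS2) and 0.53 (LARS2) on the log2 scale. The median gap between replicates of a member was 0.06 on the log2 scale in SAMD9 cells and 0.11 in empty vector cells. In bulk RNA of this kind, fewer cells with a transcript and less of it per cell cannot be told apart. Scaling by total counts lowers every log2 fold change by about 0.19. On that scale the members split into 3 higher and 25 lower, where 38.5% of all genes were called, 9.96% as higher and 28.5% as lower.

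**Figure D1:**
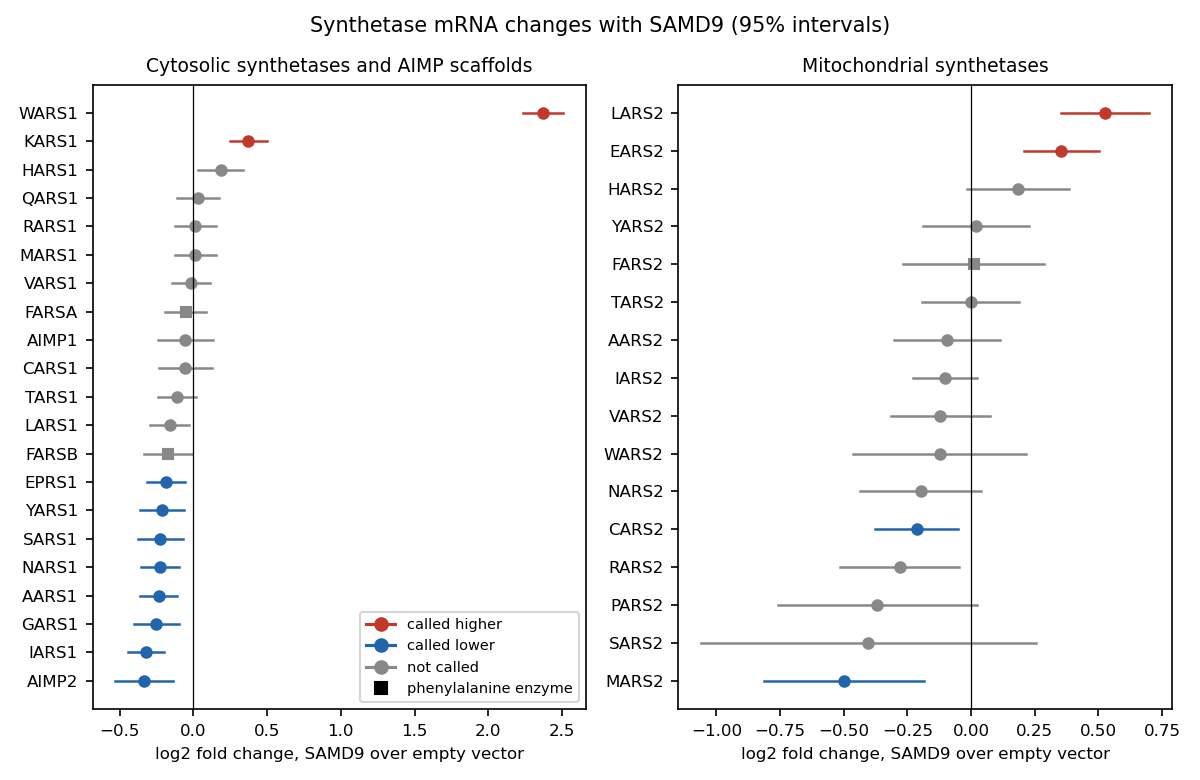
Log2 fold change of each member, SAMD9 over empty vector, with its 95% interval, for cytosolic enzymes and scaffolds (left) and mitochondrial enzymes (right, on a different x range). WARS1 lies at 2.37 and all other points lie between -0.50 and 0.53, and the 3 squares of the phenylalanine enzymes are not called. With total-count scaling all points would lie about 0.19 lower, which puts QARS1, MARS1, RARS1, FARS2 and YARS2 below 0 and HARS1 and HARS2 at about 0.

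WARS1 (ENSG00000140105, chr14:100333788-100376805, minus strand, GRCh38) had 25576 and 21265 counts in SAMD9 cells, against 4575 and 4347 in empty vector cells. Per length this was 107.9 and 116.8 normalised RPKM (a level per kilobase of gene length and per library size, with TMM scaling between libraries) in SAMD9 cells, against 23.0 and 20.4 in empty vector cells. Both SAMD9 libraries were far above both empty vector libraries, and the log2 fold change was 2.37 (SE 0.07, adjusted p = 3.43e-18, edgeR). By level, WARS1 ranked 1 among the 19 cytosolic enzymes in SAMD9 cells and 15 in empty vector cells. It supplied 15.8% and 16.9% of the summed cytosolic synthetase level in SAMD9 cells, against 3.49% and 3.29% in empty vector cells. Its mitochondrial counterpart WARS2 was not called, at -0.12 on the log2 scale (95% interval -0.46 to 0.22). WARS1 overlaps the oppositely oriented gene WDR25 over 287 exonic bases, 4.51% of its listed length, and WDR25 also rose (log2 fold change 1.05, adjusted p = 1.02e-06, edgeR). The strand setting of the counting is not given in the sources used here, so reads of that stretch cannot be assigned to either gene. WDR25 had 748 and 698 counts in SAMD9 cells, against 341 and 350 in empty vector cells, and its part in the WARS1 value was not tested.

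A list of 10 genes known for induction by interferon-gamma rose in the same cells, all 10 being called higher with a median log2 fold change of 4.33. IRF1, a transcription factor, rose by 4.48 (adjusted p = 5.18e-23, edgeR), and TAP1, a peptide transporter of antigen presentation, rose by 3.78. The tryptophan-degrading enzyme IDO1 had 3168 and 3017 counts in SAMD9 cells, against 2 and 4 in empty vector cells. The fold change of WARS1 was below the median of that list.

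Promoter windows from RefSeq (GRCh38.p14, 250 bases before to 50 after each start) were available for 32 of the 37 members and were searched on both strands. The core of the interferon-stimulated response element (GAAA, any 2 bases, GAAA) occurred in WARS1 and EARS2, 6.25% of the 32 members, against 4.38% of 27305 genes. The gamma-activated site TTCNNNGAA occurred in 5 members (CARS1, PARS2, TARS1, WARS1 and WARS2), 15.6%, against 9.38% of genes. WARS1 was the member with both, in the window of 1 of its starts, the response element at position -55 and the activated site at position -142 from that start. The matches do not overlap. The 2 members with the response element rose, and of the 30 without it 2 rose, 9 fell and 19 were not called. Of the 5 members with the activated site, 1 rose and 4 were not called. Of the 27 without it, 3 rose, 9 fell and 15 were not called. Of all genes tested, 15.3% were higher and 12.2% lower. The part of these motifs in the changes was not tested. The WARS1 and EARS2 stretches are shown because these genes rose, with the match in capitals, 5′ to 3′ on the gene's strand:
WARS1, response element, chr14:100375383-100375412, minus strand: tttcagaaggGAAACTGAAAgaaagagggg
WARS1, activated site, chr14:100375471-100375499, minus strand: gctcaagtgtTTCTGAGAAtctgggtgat
EARS2, response element in reverse, chr16:23557554-23557583, minus strand: cctgccacgcTTTCGCTTTCccaagctgaa

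These matches describe letters only and show no binding. The windows of FARSA, FARSB and FARS2 held none of the motifs searched.

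Of the other cytosolic synthetases, KARS1 rose and 7 fell, by at most 19.9% (IARS1). KARS1 (chr16:75627474-75648643, minus strand), whose splice forms serve as the lysine enzyme of both cytosol and mitochondria, had 50.3 and 52.5 normalised RPKM in SAMD9 cells, against 39.6 and 39.7 in empty vector cells. The groups did not overlap and the log2 fold change was 0.37 (SE 0.06, adjusted p = 5.21e-05, edgeR). GARS1, the glycine enzyme, which likewise serves both compartments, went the other way at -0.25 (adjusted p = 0.013, edgeR). Its size rested on single libraries, at -0.09 without empty vector replicate 1 and -0.39 without empty vector replicate 2.

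IARS1, the isoleucine enzyme (chr9:92210207-92293716, minus strand), had 28.0 and 27.4 normalised RPKM in SAMD9 cells, against 34.7 and 34.4 in empty vector cells. It fell by 0.32 on the log2 scale (SE 0.06, adjusted p = 0.00021, edgeR), and its replicates differed far less than its groups. AARS1, the alanine enzyme, had 63.6 and 64.6 normalised RPKM in SAMD9 cells, against 79.4 and 71.5 in empty vector cells. Its log2 fold change was -0.23 (SE 0.06, adjusted p = 0.00558, edgeR), with a wider gap between the empty vector libraries. NARS1, the asparagine enzyme, had 35.7 and 35.9 normalised RPKM in SAMD9 cells, against 41.5 and 42.3 in empty vector cells, which gave -0.23 on the log2 scale (SE 0.06, adjusted p = 0.00737, edgeR). The serine enzyme SARS1 (-0.22), the tyrosine enzyme YARS1 (-0.21) and EPRS1 (-0.18), a fused enzyme for glutamate and proline, also fell. So 7 of 19 cytosolic synthetases were lower, where 12.2% of all genes were, and their list median was -0.11. The number of lower calls rested on individual libraries: it was 2 without SAMD9 replicate 1, 1 without SAMD9 replicate 2, 4 without empty vector replicate 1 and 10 without empty vector replicate 2. IARS1 kept its call in each of these.

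The remaining 10 cytosolic enzymes were not called and lay between -0.17 (FARSB) and 0.18 (HARS1) on the log2 scale. HARS1, the histidine enzyme, missed the threshold (adjusted p = 0.0643, edgeR). It shares 592 exonic bases with its mitochondrial counterpart HARS2 on the other strand, and HARS2 had the same value of 0.18. HARS1 also overlaps WDR55 on the other strand over 952 bases, 11.3% of its length, and WDR55 was at 0.15. HARS2 overlaps ZMAT2 on the same strand over 152 bases, and ZMAT2 rose by 0.25 (adjusted p = 0.0232, edgeR). The part of these overlaps in the values was not tested. MARS1 (0.01), RARS1 (0.02) and QARS1 (0.03) were the nearest to 0 above it, and VARS1 (-0.02) below it.

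**Figure D2:**
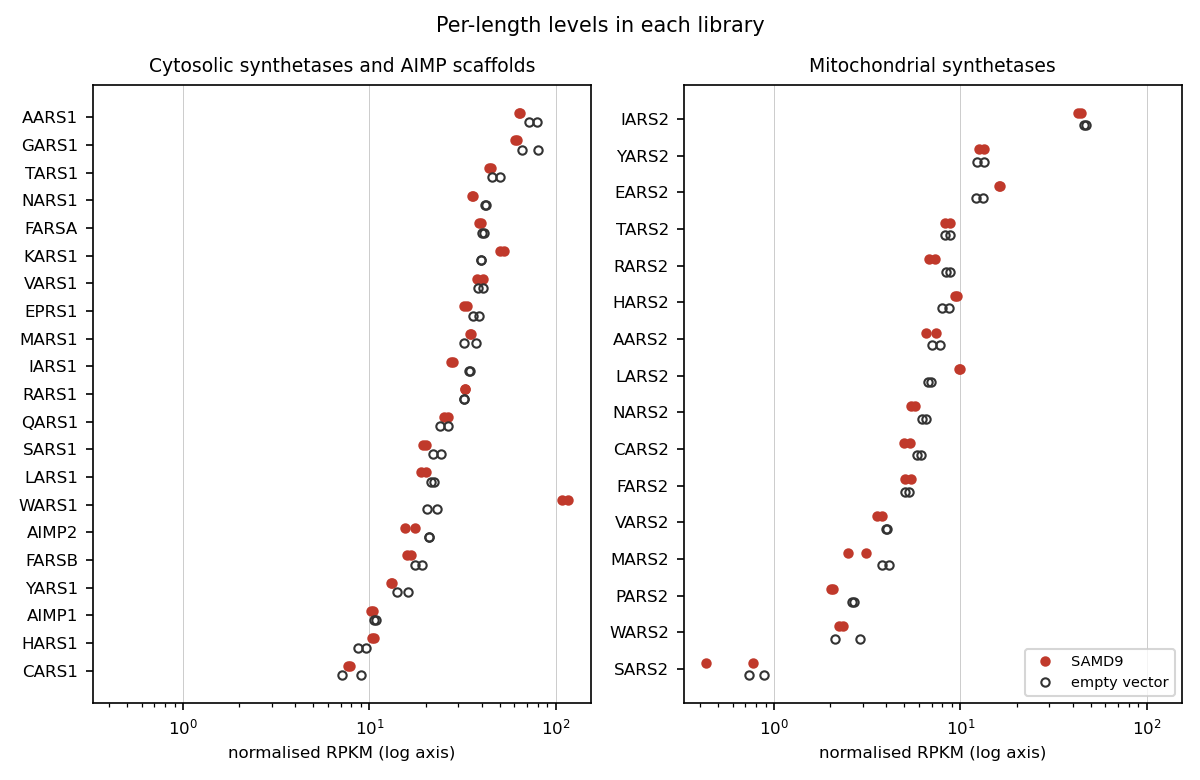
Normalised RPKM of each member in each library on a log axis, SAMD9 (filled) above empty vector (open), ordered by the empty vector mean within each panel. WARS1 has the highest cytosolic level in SAMD9 cells, at 107.9 and 116.8, and one of the lower ones in empty vector cells, at 23.0 and 20.4, and IARS2 is far above the other mitochondrial enzymes in all libraries.

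Of the 37 members, 9 belong to the multi-synthetase complex. KARS1 was higher, EPRS1, IARS1 and AIMP2 were lower and 5 were not called, with a median of -0.06. This was 11.1% higher and 33.3% lower, against 15.3% and 12.2% of all genes, and the lower count changed when single libraries were left out. Genes of the complex outside the 37 members are not in this count. A further scaffold gene is counted below with charged tRNA delivery and editing, and it was not called. AIMP2, a scaffold that binds KARS1, had 17.6 and 15.5 normalised RPKM in SAMD9 cells, against 21.0 and 20.8 in empty vector cells. It fell by 0.33 on the log2 scale (SE 0.09, adjusted p = 0.0103, edgeR), and the call was lost without SAMD9 replicate 2, the lowest library. AIMP2 overlaps EIF2AK1 on the other strand over 28.9% of its length, and EIF2AK1 was at -0.03. AIMP1, the scaffold that is also secreted as a cytokine precursor, had 10.4 and 10.2 normalised RPKM in SAMD9 cells, against 10.6 and 10.8 in empty vector cells, and was not called (-0.06). The ratio of AIMP1 to AIMP2 was 0.591 and 0.661 in SAMD9 cells, against 0.506 and 0.521 in empty vector cells. Among the 12 free cytosolic enzymes 1 was higher and 5 were lower (8.33% and 41.7%, against 15.3% and 12.2% of all genes), with a median of -0.14, and the lower count ranged from 0 to 7 when each library was left out. By catalytic fold, 3 of 19 class I enzymes were higher and 5 lower (15.8% and 26.3%), and 1 of 16 class II enzymes was higher and 4 lower (6.25% and 25%). Their lower counts ranged from 1 to 5 in class I and from 0 to 5 in class II when each library was left out, and DESeq2 called 2 class I enzymes lower.

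None of the 3 phenylalanine enzymes was called. FARSA, the catalytic alpha subunit of the cytosolic enzyme (ENSG00000179115, chr19:12922479-12934037, minus strand), had 38.7 and 39.7 normalised RPKM in SAMD9 cells, against 40.3 and 41.0 in empty vector cells. The 2 SAMD9 values lay just under the 2 empty vector values, and the log2 fold change was -0.05 (95% interval -0.19 to 0.09, adjusted p = 0.639, edgeR). FARSB, the beta subunit (ENSG00000116120, chr2:222570536-222656337, minus strand), had 16.7 and 15.9 normalised RPKM in SAMD9 cells, against 17.6 and 19.1 in empty vector cells. Its log2 fold change was -0.17 (95% interval -0.33 to -0.01), with an unadjusted p of 0.0436 and an adjusted p of 0.123 (edgeR). FARSB passed the threshold, at -0.22, when empty vector replicate 1 was left out. FARS2, the monomeric mitochondrial enzyme (ENSG00000145982, chr6:5261044-5771580, plus strand), had 5.04 and 5.41 normalised RPKM in SAMD9 cells, against 5.33 and 5.03 in empty vector cells. Its groups overlapped, and the log2 fold change was 0.01 (95% interval -0.27 to 0.29, adjusted p = 0.97, edgeR). FARS2 had only 364 to 442 counts per library, and its interval is wide beside those of FARSA and FARSB. With total-count scaling FARSA (-0.24) and FARSB (-0.36) were called lower, with most other cytosolic enzymes, and FARS2 (-0.18) was not.

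Ratios within a library do not depend on the scaling. FARSA and FARSB together made up 9.61% and 9.66% of the summed cytosolic level without WARS1 in SAMD9 cells, against 9.11% and 9.99% in empty vector cells, so the SAMD9 values lay inside the empty vector range. In the whole cytosolic sum, which includes WARS1, FARSA made up 5.66% and 5.73% in SAMD9 cells, against 6.12% and 6.60% in empty vector cells. FARSB made up 2.44% and 2.30%, against 2.68% and 3.07%. Neither of these shares overlapped between groups (exact permutation test, two-sided p = 0.333 for each). FARSA over FARSB was 2.32 and 2.49 in SAMD9 cells, against 2.28 and 2.15 in empty vector cells, a log2 difference of 0.12 (exact permutation test, two-sided p = 0.333, the smallest that 2 against 2 libraries allow). FARS2 supplied 3.51% and 3.86% of the summed mitochondrial level in SAMD9 cells, against 3.75% and 3.48% in empty vector cells, and these overlapped. The median log2 fold change was -0.05 for the 3 phenylalanine enzymes and -0.12 for the 34 other members. With 2 libraries per group, no separate response of the phenylalanine enzymes was detectable, which does not show that there was none.

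**Figure D3:**
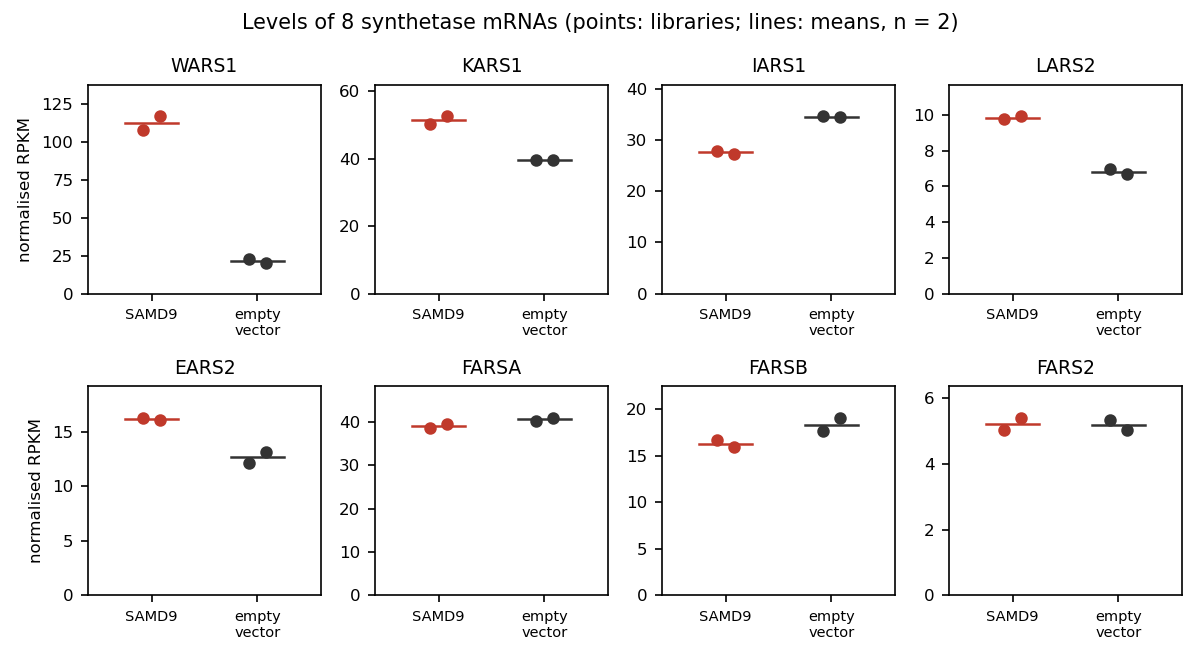
Normalised RPKM of 8 synthetases in each library (points) with the group means (lines, n = 2), SAMD9 left and empty vector right, each panel with its own axis from 0. WARS1, KARS1, LARS2 and EARS2 are higher and IARS1 is lower in both SAMD9 libraries, while FARSA, FARSB and FARS2 differ little, although FARSA and FARSB pass the threshold as lower and EARS2 loses its call with total-count scaling.

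Of the 16 mitochondrial synthetases, 2 were higher, 2 were lower and 12 were not called, with a median of -0.11. The share called, 25%, was near the 27.5% of all genes. LARS2, the leucine enzyme (chr3:45388506-45549421, plus strand), had 9.77 and 9.92 normalised RPKM in SAMD9 cells, against 6.95 and 6.70 in empty vector cells. It rose by 0.53 on the log2 scale (SE 0.08, adjusted p = 3.27e-05, edgeR), a 44.2% increase with no overlap between groups. LARS1, the cytosolic leucine enzyme, was not called at -0.16 (adjusted p = 0.0664, edgeR).

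EARS2, the glutamate enzyme (chr16:23522014-23557731, minus strand), had 16.3 and 16.1 normalised RPKM in SAMD9 cells, against 12.2 and 13.1 in empty vector cells. It rose by 0.35 (SE 0.07, adjusted p = 0.000549, edgeR), and with total-count scaling the value was 0.17 and not called. EARS2 overlaps UBFD1 on the other strand over 370 bases, 6.46% of its length, and UBFD1 rose by 0.82 (adjusted p = 4.57e-10, edgeR). Its part in the EARS2 value was not tested.

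MARS2, the methionine enzyme, had 3.11 and 2.5 normalised RPKM in SAMD9 cells, against 3.81 and 4.15 in empty vector cells. It fell by 0.50 (SE 0.15, adjusted p = 0.0159, edgeR). It had only 216 to 419 counts per library and lost its call without SAMD9 replicate 2 and without empty vector replicate 2. CARS2, the cysteine enzyme, had 5.34 and 5.01 normalised RPKM in SAMD9 cells, against 5.86 and 6.13 in empty vector cells, and fell by 0.21 (SE 0.08, adjusted p = 0.0467, edgeR). That call was close to the threshold and was lost under 6 of 9 alternatives. RARS2, the arginine enzyme, had 7.31 and 6.75 normalised RPKM in SAMD9 cells, against 8.34 and 8.75 in empty vector cells, and was not called (-0.28, adjusted p = 0.071, edgeR). The 12 that were not called ranged from -0.40 (SARS2) to 0.18 (HARS2). SARS2 had 40 to 95 counts per library and shares 42.0% of its 31-base stretches with another annotated gene, and VARS2 shares 22.8%, so their counts are uncertain.

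Cytosolic synthetase transcripts exceeded mitochondrial ones in all libraries. Their summed level was 684.6 and 692.7 normalised RPKM in SAMD9 cells, against 658.1 and 621.4 in empty vector cells, and that of the mitochondrial enzymes was 143.7 and 140.2 in SAMD9 cells, against 142.1 and 144.7 in empty vector cells. The ratio of the sums was 4.76 and 4.94 in SAMD9 cells, against 4.63 and 4.29 in empty vector cells. The groups did not overlap, with a log2 difference of 0.12 (exact permutation test, two-sided p = 0.333, the smallest possible). Without WARS1 the ratio was 4.01 and 4.11 in SAMD9 cells, against 4.47 and 4.15 in empty vector cells, and the difference turned to -0.09 (exact permutation p = 0.333). Both lists had a median log2 fold change of -0.11.

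For 14 amino acids a cytosolic and a mitochondrial enzyme could be paired. Both enzymes were called for 1 amino acid, glutamate, where EPRS1 fell (-0.18) and EARS2 rose (0.35). Of the other pairs, 9 had a single enzyme called and 4 had none. Glutamate, leucine (LARS1 -0.16, LARS2 0.53), methionine (MARS1 0.01, MARS2 -0.50) and tryptophan (WARS1 2.37, WARS2 -0.12) had 95% intervals that did not meet within the pair. The difference between enzymes of a pair was not tested.

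**Figure D4:**
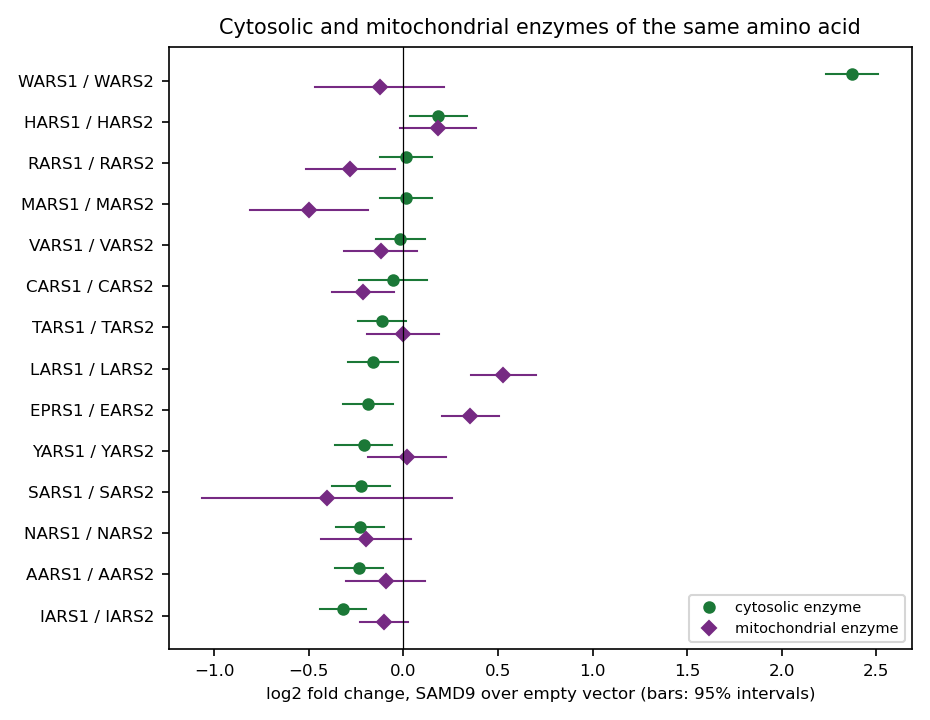
Log2 fold change, SAMD9 over empty vector, of the cytosolic (circles) and mitochondrial (diamonds) enzyme of 14 amino acids, with 95% intervals, ordered by the cytosolic value. The tryptophan, leucine and glutamate pairs are the widest apart, and total-count scaling would move all points about 0.19 to the left.

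Of 12 cytosolic synthetase genes known as ATF4 targets, 7 fell (58.3%, against 12.2% of all genes) and WARS1 rose, with a median of -0.20, and of the 7 other cytosolic enzymes none fell and KARS1 rose, with a median of 0.02. With total-count scaling 11 of the 12 and 4 of the 7 were lower (91.7% and 57.1%, against 28.5% of all genes). The difference between these lists was not tested. The 7 became 2 without SAMD9 replicate 1, 1 without SAMD9 replicate 2, 3 when empty vector replicate 1 was left out, 5 with DESeq2 and 10 when empty vector replicate 2 was left out. A further 23 ATF4 targets outside the synthetases had 11 lower and 4 higher (47.8% and 17.4%, against 12.2% and 15.3% of all genes), with a median of -0.16, so the higher share was near that of all genes. TRIB3, a pseudokinase, had 45.9 and 38.7 normalised RPKM in SAMD9 cells, against 72.6 and 63.3 in empty vector cells, and fell by 0.68 (adjusted p = 3.27e-07, edgeR). SLC7A11, the cystine transporter, fell by 0.63 (adjusted p = 2.5e-08, edgeR). PPP1R15A, the phosphatase subunit that reverses eIF2alpha phosphorylation, went the other way, with 473.5 and 547.4 normalised RPKM in SAMD9 cells, against 114.2 and 85.1 in empty vector cells, a rise of 2.36 (adjusted p = 2.19e-15, edgeR). CEBPB, a transcription factor, rose by 0.86. The lower count of these 23 ranged from 5 (without SAMD9 replicate 2) to 14 (without empty vector replicate 2). It was 7 with DESeq2, and also 7 when empty vector replicate 1 was left out.

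The amino acid response element of such genes, here TGATGNAA on either strand, occurred in the windows of 8 of 32 members, 25%, against 4.46% of 27305 genes. Of these 8, 4 fell (AARS1, GARS1, IARS1 and NARS1) and 4 were not called (CARS1, MARS1, TARS1 and YARS2). Of the 24 members without it, 4 rose, 5 fell and 15 were not called. Of all genes tested, 15.3% were higher and 12.2% lower. YARS1, which also fell, had no window to search. The stretches of the 4 that fell and of MARS1 and TARS1, which were not called, are shown to compare the element between them, with the match, or its reverse complement, in capitals:
AARS1, chr16:70289675-70289704, minus strand: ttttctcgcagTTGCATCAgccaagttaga
GARS1, chr7:30594834-30594863, plus strand: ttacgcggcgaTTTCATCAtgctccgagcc
IARS1, chr9:92293692-92293721, minus strand: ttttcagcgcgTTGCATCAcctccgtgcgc
NARS1, chr18:57621804-57621833, minus strand: tctacgctctcTGATGCAAcgccggaatcg
MARS1, chr12:57488053-57488082, plus strand: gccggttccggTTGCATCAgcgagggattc
TARS1, chr5:33440956-33440985, plus strand: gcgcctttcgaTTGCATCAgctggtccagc

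In these stretches the element occurred in members that fell and in members that were not called, and GARS1 differs from the others in its variable base. Among the members not called whose stretches are not shown, CARS1 has the common letters and YARS2 also differs in the variable base. The part of the element in the changes was not tested.

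Of 9 genes that modify tRNA-Phe, LCMT2, which acts late in wybutosine synthesis next to its anticodon, was lower (-0.44, adjusted p = 0.0165, edgeR). The other 8 were not called, and the list median was -0.14. The share lower, 11.1%, was near the 12.2% of all genes. LCMT2 had 1.44 and 1.5 normalised RPKM in SAMD9 cells, against 2.07 and 1.92 in empty vector cells, and lost its call with DESeq2 and when either SAMD9 library or empty vector replicate 1 was left out. Among 13 genes for charged tRNA delivery and editing, the elongation factor EEF1A1 was higher (0.14, adjusted p = 0.025, edgeR) and 12 were not called. The share higher was 7.69%, against 15.3% of all genes. The EEF1A1 call was lost when either SAMD9 library was left out.

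In tRNA maturation, 1 of 16 genes was lower and 2 were higher (6.25% and 12.5%, against 12.2% and 15.3% of all genes). XPOT, the exportin of tRNA, fell by 0.44 (adjusted p = 3.84e-05, edgeR), with 22.8 and 22.0 normalised RPKM in SAMD9 cells, against 32.7 and 28.0 in empty vector cells. RTCB, the tRNA splicing ligase, rose by 0.34 and ELAC2, which trims tRNA 3′ ends, by 0.21. Of 17 genes for RNA polymerase III and its factors, POLR3B, a core subunit, fell by 0.72 (adjusted p = 0.000273, edgeR) and BDP1 by 0.24, while the subunits POLR3C and POLR3D rose by 0.30 and 0.25. In the polymerase III list 11.8% were higher and 11.8% lower, close to the 15.3% and 12.2% of all genes.

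Mitochondrial tRNAs were hardly captured. Of the 22 mitochondrial tRNA genes, 9 had no count in any library, only MT-TP could be tested, and it was not called. MT-TF, the mitochondrial tRNA for phenylalanine, had 0 and 0 counts in SAMD9 cells, against 0 and 1 in empty vector cells. Nuclear-encoded tRNAs were not analysed here.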

How the data were processed

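The authors deposited, for each of 4 libraries, raw counts per Ensembl gene with CPM and RPKM values. The deposited CPM equalled counts over the library total and the deposited RPKM equalled CPM per kilobase of listed length, so tests used the counts alone. Per the submitters' processing notes, bcl2fastq, STAR 2.5.1a, Subread and featureCounts 1.4.6-p5 were used with GRCh38. The sources used here do not give their settings, the strand mode or the annotation release. Of counts from 1 to 20, 72.9% were even, so counts may hold both mates of a read pair and carry more error than they show. This may apply to high counts too, where an excess of even values need not show.

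Genes were kept with filterByExpr (minimum count 10, total 15), leaving 19814, and fitted with edgeR 4.0.16 in R 4.3.3 (TMM, glmQLFit, glmQLFTest, no covariate), with Benjamini-Hochberg adjustment over all of them and calls below 0.05. Normalised RPKM are counts over TMM-scaled library size and listed length. The SE is the absolute log2 fold change over the square root of F. TMM factors were 0.941 and 0.932 for SAMD9 and 1.07 and 1.07 for the empty vector. Replicates differed beyond the sampling noise of single counts (chi-square per degree of freedom 5.00 and 9.35). Counting both mates of a pair would raise these values, and its part was not tested. Ratios of summed levels were compared with exact permutation tests. Alternatives were total-count scaling, DESeq2 size factors, DESeq2 1.42.0, no filter, a replicate block and leaving out each library. Symbols came from a gene name table (54836 IDs) and GENCODE 29. Exonic overlaps used the listed coordinates, and shared 31-base stretches used GENCODE 29 transcripts.

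Members and lists were chosen with earlier results of these data known. The naming rule gave library values for the phenylalanine enzymes, WARS1, AIMP1, AIMP2 and the 5 cytosolic and 5 mitochondrial members with the lowest p, log2 fold changes for other called members, and at most the 4 lowest-p genes of each other list. Some genes are not reported here.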

Additional observations from a re-analysis of the deposited data

How the results depend on the processing

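WARS1, KARS1, IARS1 and LARS2 kept their calls under all 9 alternatives, and EARS2 under all but total-count scaling. Total-count scaling gave 1974 genes higher and 5653 lower, 15 cytosolic enzymes lower, 1 mitochondrial enzyme higher and 8 lower, and both AIMP scaffolds (2) and 7 complex members lower. It called FARSA (-0.24) and FARSB (-0.36), and turned MARS1 (-0.18) and RARS1 (-0.17) negative. In the other lists it gave 2 ATF4 targets higher, 7 tRNA-Phe modification genes lower, 0 charging partners higher and 4 lower, 0 maturation genes higher and 3 lower, and 0 polymerase III genes higher and 12 lower. DESeq2 called 0 mitochondrial enzymes lower, 7 ATF4 targets lower and 0 tRNA-Phe modification genes lower. Without the low-count filter 1 mitochondrial enzyme (MARS2) was lower.

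Replicate differences correlated at r = 0.004 between groups across 19814 genes, so no shared replicate effect was seen. Whether replicate numbers mark pairs is not stated in the labels. The replicate block gave 2914 higher and 2330 lower genes and lowered the lower calls of mitochondrial enzymes to 1, of class I enzymes to 4 and of all members to 9.

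Leaving out each library gave 2291 to 3123 genes higher and 1466 to 2279 lower. Lower calls ranged from 1 to 10 for cytosolic enzymes, 0 to 2 for mitochondrial enzymes, 0 to 1 for AIMP scaffolds, 1 to 4 for the complex, 5 to 14 for ATF4 targets, 0 to 1 for tRNA-Phe modification, 0 to 1 for charging partners, 1 to 2 for maturation and 1 to 2 for polymerase III. Higher calls ranged from 0 to 1 for charging partners, 1 to 2 for maturation and 0 to 2 for polymerase III. FARSB ranged from -0.22 to -0.11 and FARSA from -0.06 to -0.03 on the log2 scale. The lone sample left is assumed to vary like the other group. The ratio of cytosolic to mitochondrial sums gave a log2 difference of 0.07 to 0.18 under these, and -0.0857 without WARS1, where the sign turned because WARS1 was left out of the sum. The causes of the other shifts were not tested. Low counts, down to 40 in a library for SARS2, limit SARS2, PARS2, WARS2, MARS2 and FARS2, and the SE of SARS2 was 0.32 on the log2 scale.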
